A study of Mus musculus with 12 samples.

Results

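The α1-antitrypsin and antichymotrypsin serpins examined here were 9 genes chosen by name from the tables of read counts: *Serpina1a*, *Serpina1b*, *Serpina1c*, *Serpina1d* and *Serpina1e* (the α1-antitrypsin genes of the mouse), *Serpina3k*, *Serpina3m* and *Serpina3n* (antichymotrypsin-like genes), and *Serpina6*, which encodes corticosteroid-binding globulin. All 9 were listed in both tables, among 20775 genes in chow and 22709 in HFCF livers, and all 9 passed the filter on low counts. RNA was sequenced from livers of 12 male C57BL/6N mice aged 4–6 months, 3 mice in each of 4 groups, with 1 library per mouse. Every mouse was homozygous for a floxed allele (HuR F/F in the labels) of *Elavl1*, the gene that encodes the RNA-binding protein HuR. Mice labelled HuRHep-/- had received AAV8-Tbg-Cre, a virus with Cre under a hepatocyte promoter, and controls labelled WT had received AAV8-Tbg-null. The chow groups, WT and HuRHep-/-, were fed normal chow, and the HFCF groups received a diet with 40 kcal% fat, 2% cholesterol and 20 kcal% fructose for 16 weeks. The methods of the study describe instead a cross with albumin-Cre mice, studied younger, which cannot be settled from the counts. Library totals over all genes ran from 30071731 to 35949203 reads.

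*Elavl1*, the targeted gene, was higher in the livers labelled HuRHep-/-, which goes against the label. In chow its raw counts were 938, 876 and 948 reads in WT livers and 1475, 1265 and 1261 reads in livers labelled HuRHep-/- (log2 difference 0.41, SE 0.068, adjusted p = 0.0219 from limma). In HFCF they were 904, 791 and 849 reads in WT livers and 1299, 1242 and 1271 reads in livers labelled HuRHep-/- (log2 difference 0.38, SE 0.072, adjusted p = 0.0327 from limma). The counts cover the whole gene and cannot show the floxed part alone. Groups are therefore named by their labels, and each genotype direction given here rests on those labels.

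Serpins are protease inhibitors that present an exposed reactive-centre loop as bait. When a protease cuts the loop, the serpin changes shape and traps the enzyme. α1-antitrypsin is secreted by hepatocytes in large amounts and protects tissue from neutrophil elastase, and antichymotrypsin acts on chymotrypsin-like proteases such as cathepsin G. Humans have a single α1-antitrypsin gene, whereas the mouse carries a cluster of copies, and the mouse antichymotrypsin locus is similarly expanded. Corticosteroid-binding globulin has the serpin fold but carries glucocorticoids in blood in place of inhibiting proteases. Several of these proteins belong to the acute-phase response, the change in secretion by the liver during inflammation.

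The 9 genes lie on chromosome 12 (GRCm38, GENCODE annotation). *Serpina6* lies at chr12:103646630-103657212 and *Serpina1b*, *Serpina1d*, *Serpina1a*, *Serpina1c* and *Serpina1e* follow up to base 103958975, all on the minus strand. *Serpina3k* (chr12:104338486-104346144), *Serpina3m* (chr12:104338486-104394257) and *Serpina3n* (chr12:104406729-104414329) lie on the plus strand. *Serpina3k* and *Serpina3m* are annotated from the same start and share 60 exonic bases, and the span of *Serpina1b* covers *Serpina1d* without shared exonic bases. The coding sequences of the *Serpina1* genes were 96.3 to 98.5% identical to each other. Those of *Serpina3k* and *Serpina3m* were 92.5% identical, and *Serpina3n* was 83.7% identical to *Serpina3k* and 85.2% to *Serpina3m*.

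The loop largely decides which protease is bound, so the 72 bases that encode it are shown for each inhibitor, 5′ to 3′ on the coding strand, from GENCODE transcripts. Capitals mark the 17 positions at which the *Serpina1* genes are not all alike.
Serpina1a: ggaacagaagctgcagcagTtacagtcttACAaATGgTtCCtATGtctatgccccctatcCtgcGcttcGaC
Serpina1b: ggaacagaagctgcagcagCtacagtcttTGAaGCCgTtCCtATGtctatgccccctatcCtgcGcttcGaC
Serpina1c: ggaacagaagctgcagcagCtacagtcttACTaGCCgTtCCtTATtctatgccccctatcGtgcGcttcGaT
Serpina1d: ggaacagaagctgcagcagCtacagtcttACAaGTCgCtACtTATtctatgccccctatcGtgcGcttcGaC
Serpina1e: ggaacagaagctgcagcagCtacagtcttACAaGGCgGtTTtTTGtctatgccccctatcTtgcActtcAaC
Codon 15 of each stretch encodes the P1 residue, the residue just before the cut that mainly sets the target protease. It is ATG (methionine) in *Serpina1a* and *Serpina1b*, TAT (tyrosine) in *Serpina1c* and *Serpina1d*, and TTG (leucine) in *Serpina1e*. In the same stretch the *Serpina3* genes differ at 34 positions, again in capitals.
Serpina3k: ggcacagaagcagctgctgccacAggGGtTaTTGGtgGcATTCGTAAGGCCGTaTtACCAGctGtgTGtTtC
Serpina3m: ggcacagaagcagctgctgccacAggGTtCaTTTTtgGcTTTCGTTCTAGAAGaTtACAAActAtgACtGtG
Serpina3n: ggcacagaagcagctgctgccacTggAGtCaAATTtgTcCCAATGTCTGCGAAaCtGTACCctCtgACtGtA
No matching stretch was found in *Serpina6*, and none is shown.

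Such close copies bear on the counts. Of all 31-base words in the longest transcript, 75.8% of those of *Serpina1a*, 51.8% of *Serpina1b*, 82.2% of *Serpina1c*, 64.7% of *Serpina1d* and 55.3% of *Serpina1e* also occur in other genes. For 100-base words the shares were 49.9, 20.6, 58.5, 29.3 and 14.8%. The *Serpina3* genes shared less, from 21.6 to 35.0% of 31-base words and from 0.204 to 6.09% of 100-base words. *Serpina6* shared none at either length. Outside the 9 members, *Gm8893* held 51.8% of the 31-base words of *Serpina1a* and 53.0% of those of *Serpina1c*, and its own level was 62.3 ± 7.69 CPM in chow WT livers, 58.6 ± 1.94 CPM in chow livers labelled HuRHep-/-, 24.2 ± 8.54 CPM in HFCF WT livers and 19.0 ± 1.25 CPM in HFCF livers labelled HuRHep-/-. Over the 12 livers it varied with *Serpina1e* (Pearson r 0.982), a description that holds the group differences. *C8b* (0.987) was closer to *Serpina1e* and *Ccdc25* (0.980) nearly as close, so this likeness is not particular to *Gm8893*. Read length and the authors' rule for reads that fit several genes are not given in the sources used here. The split of reads among the *Serpina1* genes is thus uncertain, above all between *Serpina1a* and *Serpina1c*, and the subfamily sums are given beside the single genes.

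**Figure D1:**
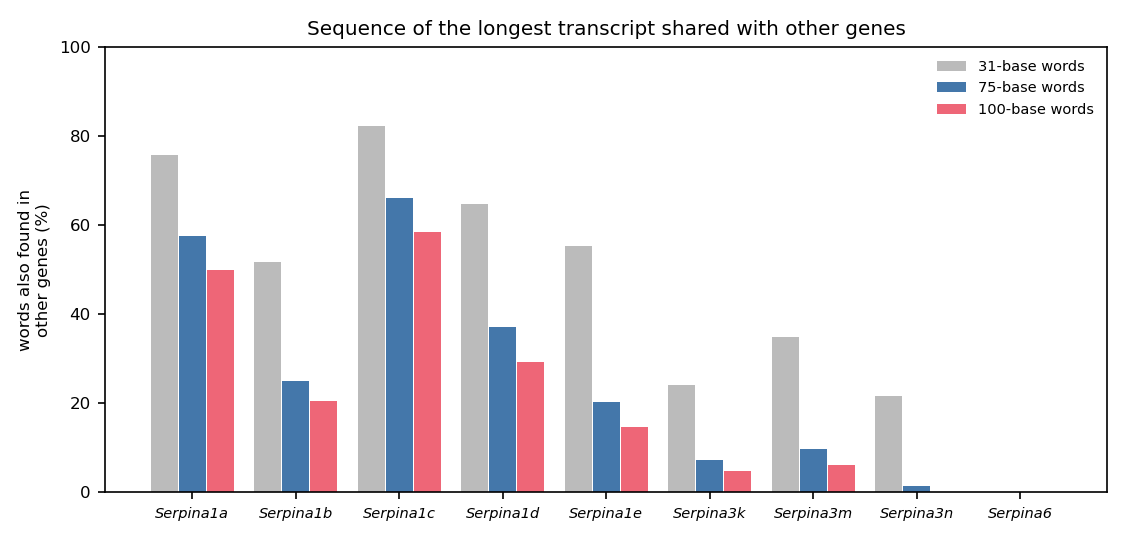
For each of the 9 genes (horizontal axis), bars give the percentage of 31-, 75- and 100-base words of its longest transcript that also occur in transcripts of other genes. *Serpina1c* is highest at each length, reaching 82.2% at 31 bases, and *Serpina6* is at 0.

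The *Serpina1* genes took a sizeable share of the liver transcriptome. Together they held 4.03, 3.92 and 3.49% of all counted reads in chow WT livers. In chow livers labelled HuRHep-/- they held 3.13, 3.52 and 3.87%. In HFCF the shares were 1.90, 2.77 and 1.66% in WT livers and 1.59, 1.71 and 1.61% in livers labelled HuRHep-/-. Every HFCF liver lay below every chow liver. The *Serpina3* genes held 1.07 ± 0.130% of reads in chow WT livers (mean ± SD, n = 3 in this and each following group) and 0.448 ± 0.0525% in HFCF livers labelled HuRHep-/-, with 0.870 ± 0.134% and 0.838 ± 0.132% in the other two groups. *Serpina3k* supplied nearly all of this, 95.2% of *Serpina3* reads in chow WT livers, 92.5% in chow livers labelled HuRHep-/-, 92.3% in HFCF WT livers and 81.8% in HFCF livers labelled HuRHep-/-.

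**Figure D2:**
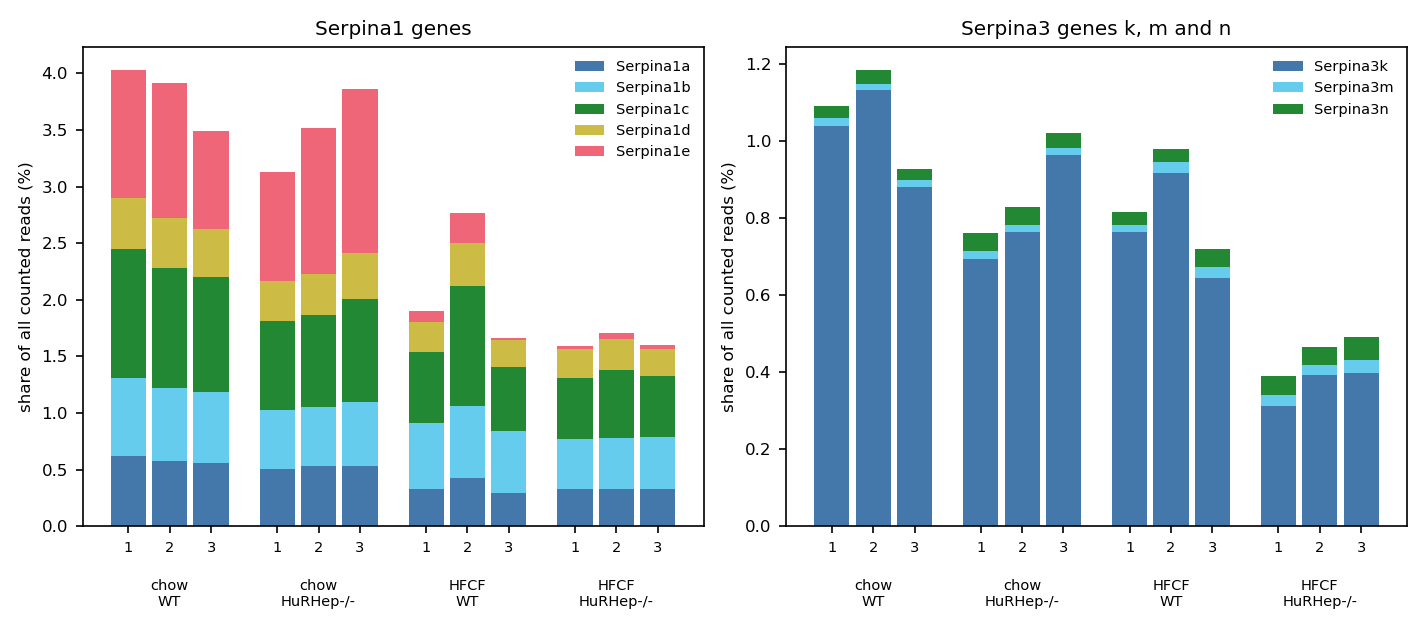
Stacked bars give the share of all counted reads (%) held by each *Serpina1* gene (left) and each *Serpina3* gene (right) in each of the 12 livers, numbered by replicate within group. The *Serpina1* total is 3.13 to 4.03% in chow livers and 1.59 to 2.77% in HFCF livers, and the *Serpina1e* segment is at most 0.264% of reads in HFCF livers (WT replicate 2).

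Levels were compared between genes per length of exons, as RPKM (reads scaled to exon length and library size). In chow WT livers *Serpina1c* had 8733 ± 672 RPKM, *Serpina1e* 7258 ± 1117, *Serpina3k* 5462 ± 598, *Serpina1a* 3512 ± 265, *Serpina1d* 3468 ± 175 and *Serpina1b* 3018 ± 201. *Serpina1a* and *Serpina1d* did not differ beyond their spread. For *Serpina1b* the merged exons used here cover 2415 bases, whereas its longest transcript has 1762, so its place below these genes depends on the annotation. *Serpina3n*, *Serpina6* and *Serpina3m* were far lower, at 167 ± 18.4, 144 ± 29.4 and 125 ± 16.8 RPKM, and these neighbours overlapped. In chow livers labelled HuRHep-/- *Serpina1e* had the highest mean, at 8009 ± 1913 RPKM, beside 6436 ± 807 for *Serpina1c* and 4108 ± 901 for *Serpina3k*. In HFCF WT livers *Serpina1c* (5460 ± 2215 RPKM) and *Serpina3k* (3698 ± 803) had the highest means, whereas *Serpina1e* had dropped below every other *Serpina1* gene at 779 ± 812 RPKM. In HFCF livers labelled HuRHep-/- *Serpina1e* stood at 238 ± 84.8 RPKM, close to *Serpina3n* at 222 ± 29.2.

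The genotype comparison in chow set livers labelled HuRHep-/- beside WT livers without the diet. *Serpina1b*, with a methionine P1 codon, had normalised levels, in CPM (counts scaled to a common library size), of 7845, 6954 and 7067 in WT livers and 5279, 5312 and 6170 CPM in livers labelled HuRHep-/-. *Serpina1c*, with a tyrosine P1 codon, had 12942, 11353 and 11362 CPM against 7945, 8325 and 10009 CPM. *Serpina1a* and *Serpina1d* showed the same arrangement, with all 3 livers labelled HuRHep-/- below all 3 WT livers. The log2 differences were -0.23 (SE 0.13) for *Serpina1a*, -0.38 (SE 0.13) for *Serpina1b*, -0.44 (SE 0.16) for *Serpina1c* and -0.32 (SE 0.13) for *Serpina1d*. None of the 4 passed the test (adjusted p from 0.142 to 0.317, limma with Benjamini-Hochberg adjustment over 13526 genes).

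*Serpina1e*, with the leucine P1 codon, did not separate the chow groups. It had 12820, 12739 and 9652 CPM in WT livers and 9721, 13246 and 15887 CPM in livers labelled HuRHep-/-, so that the groups overlapped (log2 difference 0.13, SE 0.23, adjusted p = 0.768 from limma). Its share of the *Serpina1* reads averaged 27.7% in WT livers and 35.0% in livers labelled HuRHep-/-. The *Serpina1* sum overlapped between the groups, with a log2 difference of -0.21 ± 0.14 (SE).

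Among the antichymotrypsin-like genes *Serpina3k* had 11785, 12094 and 9824 CPM in chow WT livers and 7010, 7800 and 10542 CPM in livers labelled HuRHep-/- (log2 difference -0.42, SE 0.20, adjusted p = 0.241 from limma). The groups overlapped through replicate 3 of the livers labelled HuRHep-/-. *Serpina3n*, an acute-phase antichymotrypsin, lay in the other direction, with 345, 382 and 306 CPM in WT livers and 478, 473 and 413 CPM in livers labelled HuRHep-/-. Those groups did not overlap, but the difference missed the threshold (log2 difference 0.41, SE 0.10, adjusted p = 0.0664 from limma). *Serpina3m* (215 ± 28.9 and 207 ± 6.15 CPM) and *Serpina6* (254 ± 51.7 and 241 ± 14.8 CPM) overlapped between the groups, at log2 differences of -0.04 (SE 0.097) and -0.05 (SE 0.13). The *Serpina3* sum also overlapped (log2 difference -0.38 ± 0.18, SE).

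In chow 0 of the 9 members were thus called higher or lower by limma, beside 2.29% of all tested genes called higher and 1.94% called lower. With voom weights in place of the variance trend the count was also 0, beside 3.97% of all tested genes, and 4 members (*Serpina1b*, *Serpina1c*, *Serpina1d* and *Serpina3n*) had an unadjusted p under 0.05 by limma, beside 23.5%. Groups did not overlap for 5 of the 9 members, 4 lower and 1 higher, beside 29.5% of all tested genes in either direction, and the same 5 were separate as shares of all counted reads, beside 30.3%. The median log2 difference was -0.23 over the members and 0.00 over all tested genes. *Serpina3n* was called with the replicate number as a block (adjusted p = 0.0452, limma) and without chow WT replicate 2 (adjusted p = 0.0443, limma).

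Under the HFCF diet *Serpina3k* fell. It had 7247, 9408 and 6162 CPM in WT livers and 2746, 3542 and 3512 CPM in livers labelled HuRHep-/-, a 2.33-fold lower level (log2 difference -1.22, SE 0.20, adjusted p = 0.0235 from limma). The highest liver labelled HuRHep-/- stood well below the lowest WT liver. The call held without HFCF WT replicate 2 or 3 and was lost without HFCF WT replicate 1 or any 1 of the 3 HFCF livers labelled HuRHep-/-, with adjusted p between 0.0230 and 0.114 (limma) and log2 differences between -1.36 and -1.06. The *Serpina3* sum, which *Serpina3k* dominates, differed by -1.03 ± 0.19 (SE) on the log2 scale without overlap.

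*Serpina1b* followed at 5507, 6451 and 5189 CPM in HFCF WT livers and 3942, 4069 and 4027 CPM in livers labelled HuRHep-/-. These groups did not overlap, and the log2 difference of -0.52 (SE 0.13) gave an adjusted p of 0.0592 (limma). *Serpina1a*, *Serpina1c* and *Serpina1d* had log2 differences of -0.25 (SE 0.17), -0.51 (SE 0.27) and -0.34 (SE 0.21), with overlapping groups. In all 3 genes HFCF WT replicate 2 stood above the other WT livers, for *Serpina1c* at 10898 CPM beside 5971 and 5423 CPM. The WT livers were spread more widely than the livers labelled HuRHep-/-, at 3469 ± 833 against 2898 ± 38.5 CPM for *Serpina1a*, 7431 ± 3015 against 5013 ± 421 CPM for *Serpina1c* and 2899 ± 916 against 2249 ± 149 CPM for *Serpina1d*. Without HFCF WT replicate 2 the log2 differences were -0.064, -0.20 and -0.096. The *Serpina1* sum was 18048, 28421 and 15856 CPM in HFCF WT livers and 14068, 15455 and 14148 CPM in livers labelled HuRHep-/- (log2 difference -0.47 ± 0.26, SE). The normalised sums did not overlap, whereas as a share of all counted reads the lowest WT liver, at 1.66%, lay below the highest liver labelled HuRHep-/-, at 1.71%.

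*Serpina1e* was the most variable member in HFCF. WT livers held 920, 2711 and 151 CPM, an 18.0-fold range, and livers labelled HuRHep-/- held 269, 536 and 348 CPM. The raw counts behind these WT values were 34844, 88798 and 4746 reads. The log2 difference was -0.98 with an SE of 0.93 (adjusted p = 0.514, limma). It was -2.11 without HFCF WT replicate 3, with an adjusted p of 0.0458 (limma), and -0.03 without HFCF WT replicate 2.

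*Serpina3n* had 322, 363 and 433 CPM in HFCF WT livers and 426, 419 and 527 CPM in livers labelled HuRHep-/-, with overlap (log2 difference 0.28, SE 0.13, adjusted p = 0.200 from limma). *Serpina6*, the glucocorticoid carrier, had 201, 271 and 239 CPM against 312, 272 and 289 CPM. These groups were separate by the narrowest margin (log2 difference 0.29, SE 0.11, adjusted p = 0.145 from limma). *Serpina3m* had 247 ± 68.2 and 265 ± 19.0 CPM.

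In HFCF 1 of the 9 members was called, lower, beside 3.95% of all tested genes called lower, and 0 of 9 were called higher by limma, beside 2.85%. An unadjusted p under 0.05 was reached by 3 members, *Serpina3k*, *Serpina1b* and *Serpina6*, beside 29.5% of all tested genes, and with voom weights 2 were called, *Serpina3k* and *Serpina1b*, beside 7.43%. Groups did not overlap for 3 members, beside 36.8% of all tested genes. As shares of all counted reads they did not overlap for 4, with *Serpina3n* added, beside 40.1%. The median log2 difference was -0.34 over the members and 0.00 over all tested genes.

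**Figure D3:**
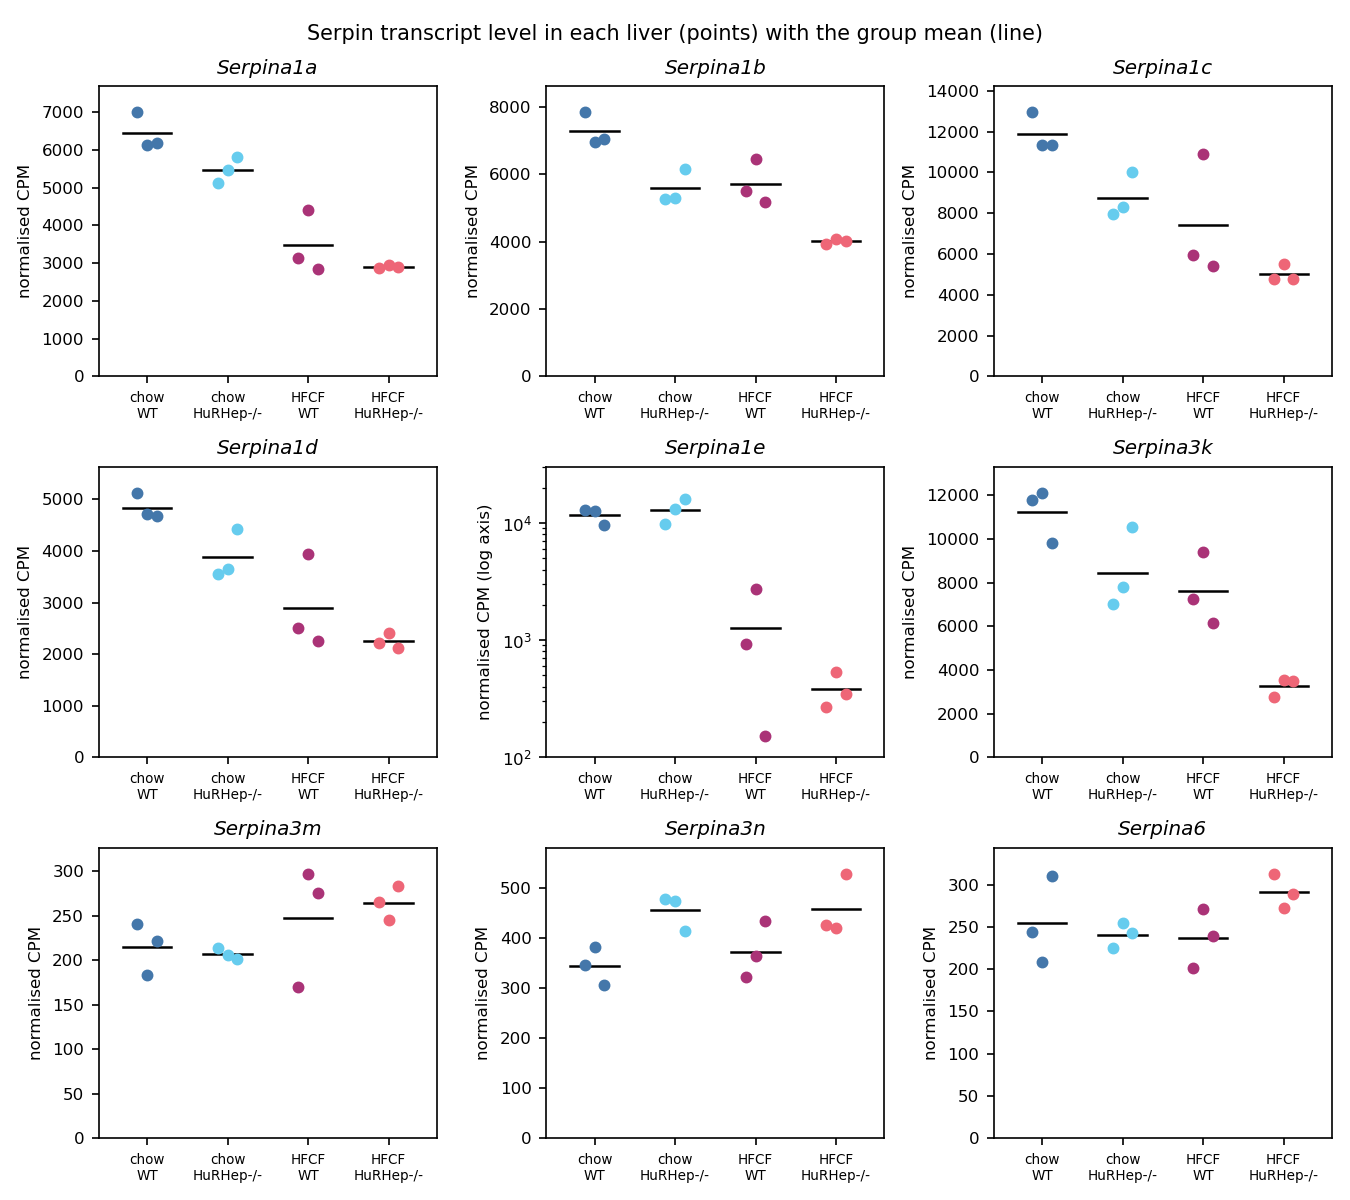
Each panel plots the normalised CPM of a gene in the 12 livers (points) with the group mean (line), on a linear axis from 0 except for *Serpina1e*, which is on a log axis. *Serpina3k* is lowest in the HFCF livers labelled HuRHep-/- (2746 to 3542 CPM), and *Serpina1e* lies between 9652 and 15887 CPM in chow livers and between 151 and 2711 CPM in HFCF livers.

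Whether the genotype difference itself changed with diet was tested as an interaction over the 12 libraries. By limma 0 of 14535 genes, or 0% higher and 0% lower, were called, with a smallest adjusted p of 0.0578, although 2087 genes (14.4%) had an unadjusted p under 0.05. With voom weights 1 gene was called. Among the 9 members 0 were called by limma or with voom weights, and 1 had an unadjusted p under 0.05, *Serpina3k* (interaction -0.78 on the log2 scale, SE 0.29, adjusted p = 0.267 from limma). Its larger difference in HFCF than in chow is therefore not shown to differ between the diets. For *Serpina1e* the interaction was -1.09 with an SE of 1.06, and it ran from -2.22 without HFCF WT replicate 3 to -0.14 without HFCF WT replicate 2. For *Serpina6* it was 0.36 (SE 0.19), and it ran from 0.21 to 0.50 with a library left out.

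Because no member was called in the interaction, the genotype difference was also averaged over both diets, a comparison added after the data were seen. *Serpina3k* (log2 difference -0.82, SE 0.14, adjusted p = 0.00324 from limma) and *Serpina1b* (-0.44, SE 0.090, adjusted p = 0.00666) fell in the livers labelled HuRHep-/-. *Serpina3n* rose (0.35, SE 0.089, adjusted p = 0.0189 from limma). Its call was lost without replicate 1 of the chow livers labelled HuRHep-/- (log2 difference 0.32, adjusted p = 0.0516, limma), and over the 12 fits that left out a library its log2 difference ran from 0.29 to 0.41. These were 2 members lower beside 10.3% of all tested genes and 1 higher beside 8.96%. *Serpina1c* (-0.47, SE 0.16) and *Serpina1d* (-0.32, SE 0.13) did not pass, at adjusted p of 0.0642 and 0.0980 (limma). Without HFCF WT replicate 3, 6 members were called, with *Serpina1c*, *Serpina1d* and *Serpina1e* added, beside 20.1% of all tested genes in either direction in that fit. In a two-sided exact permutation of genotype within diets, the unadjusted p was 0.005 for *Serpina1b*, the smallest that 400 relabelings allow, 0.01 for *Serpina1c* and *Serpina3k*, 0.015 for *Serpina3n* and 0.02 for *Serpina1a* and *Serpina1d*. For *Serpina6*, *Serpina1e* and *Serpina3m* the same exact permutation gave 0.345, 0.575 and 0.85.

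**Figure D4:**
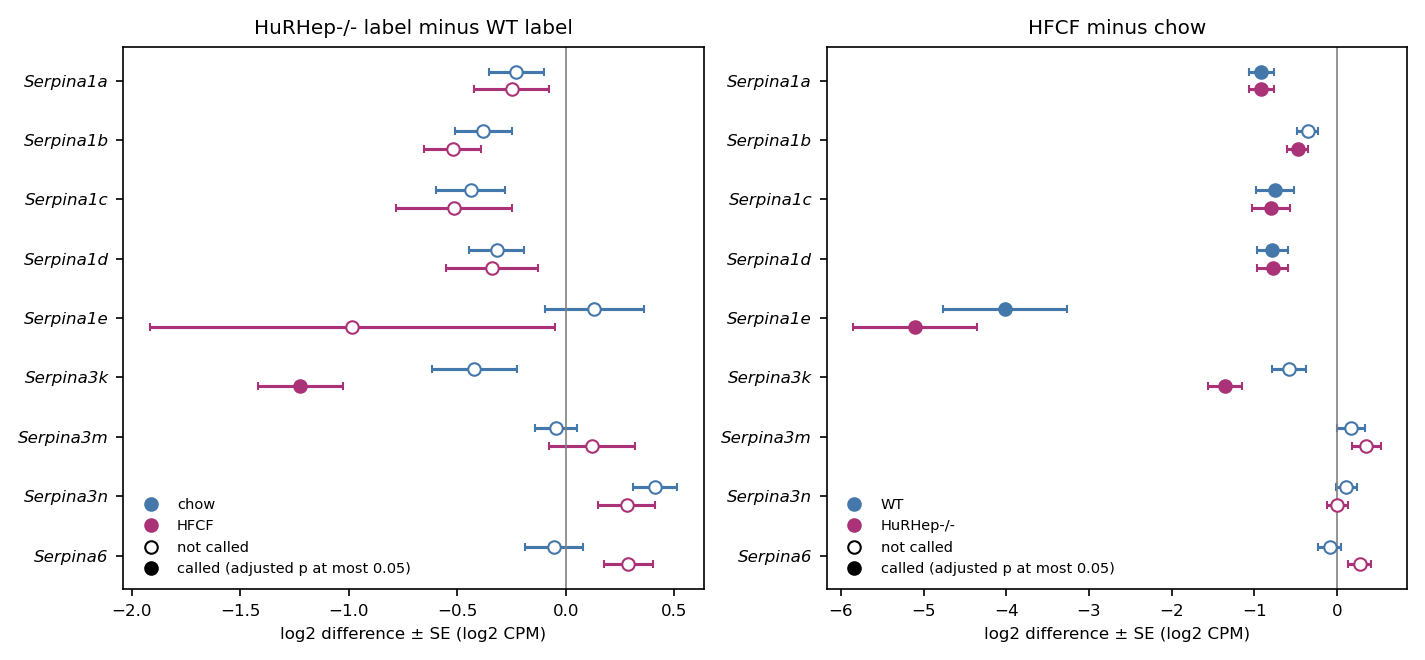
Points give the log2 difference of each gene with its SE, left for the HuRHep-/- label against WT in chow and HFCF livers, right for HFCF against chow in each genotype. Filled points passed an adjusted p of 0.05 (limma). *Serpina3k* in HFCF, at -1.22, is the filled point on the left, and *Serpina1e*, at -4.01 and -5.10, is farthest from 0 on the right.

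The diets were set side by side in each genotype. Each deposited table holds 1 diet, so diet and table cannot be told apart, and these comparisons share their samples with the genotype comparisons above. In WT livers *Serpina1e* fell 16.1-fold under HFCF (log2 difference -4.01, SE 0.75, adjusted p = 0.00373 from limma), although the value depended on which HFCF WT livers entered. It was -2.88 without HFCF WT replicate 3 and -4.97 without HFCF WT replicate 2, and the call held in all 12 fits that left out a library. In livers labelled HuRHep-/- the fall of *Serpina1e* was 34.4-fold (log2 difference -5.10, SE 0.75, adjusted p = 5.98e-04 from limma), between -5.38 and -4.88 with any library left out. Its share of the *Serpina1* reads averaged 5.19% in HFCF WT livers (5.09, 9.54 and 0.951%) and 2.61% in HFCF livers labelled HuRHep-/- (1.91, 3.47 and 2.46%), with overlap.

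The other α1-antitrypsin genes had smaller differences with diet. *Serpina1a* was 1.88-fold lower in WT livers (log2 difference -0.91, SE 0.15, adjusted p = 0.00233 from limma) and 1.89-fold lower in livers labelled HuRHep-/- (-0.91, adjusted p = 0.00120). *Serpina1d* was 1.72-fold lower in both genotypes (log2 differences -0.78, adjusted p = 0.0108 and 0.00655 from limma). *Serpina1c* was 1.68-fold lower in WT livers (-0.75, SE 0.23, adjusted p = 0.0361) and 1.74-fold lower in livers labelled HuRHep-/- (-0.80, adjusted p = 0.0182, limma). Its call in WT livers rested on single libraries. It was lost without any 1 of the 3 chow WT livers, HFCF WT replicate 1 or 3, or replicate 1 or 2 of the HFCF livers labelled HuRHep-/- (adjusted p up to 0.138, limma). In livers labelled HuRHep-/- the call of *Serpina1c* was lost without chow replicate 3 or HFCF replicate 1 or 3 (adjusted p up to 0.0624, limma).

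*Serpina1b*, also a methionine P1 gene, had the smallest log2 differences of the *Serpina1* genes with diet. Its log2 difference was -0.35 (SE 0.13, adjusted p = 0.0629 from limma) in WT livers, called without HFCF WT replicate 2 (adjusted p = 0.0173), and -0.47 (adjusted p = 0.0130) in livers labelled HuRHep-/-. *Serpina3k* differed by -0.58 (SE 0.20, adjusted p = 0.0584 from limma) in WT livers and was called there without chow HuRHep-/- replicate 3 or HFCF WT replicate 2 (adjusted p = 0.0389 and 0.0179). In livers labelled HuRHep-/- *Serpina3k* fell 2.56-fold (log2 difference -1.36, SE 0.20, adjusted p = 6.86e-04 from limma).

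*Serpina3m*, *Serpina3n* and *Serpina6* passed in neither genotype. Their log2 differences were 0.17 (SE 0.17), 0.11 (SE 0.13) and -0.09 (SE 0.14) in WT livers and 0.35 (SE 0.17), 0.00 (SE 0.13) and 0.27 (SE 0.14) in livers labelled HuRHep-/-. Without HFCF WT replicate 1, in which *Serpina3m* stood at 170 CPM beside 296 and 276 CPM, *Serpina3m* was called higher in both genotypes (log2 differences 0.42 and 0.35, adjusted p = 0.0247 and 0.0152 from limma).

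In WT livers 4 of the 9 members were called lower with HFCF, beside 12.8% of all tested genes, and 0 of 9 higher by limma, beside 11.3%. In livers labelled HuRHep-/- 6 were called lower, beside 19.1%, and 0 higher by limma, beside 19.7%. With voom weights 6 members were called in WT livers, with *Serpina1b* and *Serpina3k* added, beside 22% of all tested genes in either direction. Groups did not overlap for 6 members in WT livers, all lower with HFCF, beside 37.6% of all tested genes, and for 8 members in livers labelled HuRHep-/- (6 lower, 2 higher), beside 54.6%. As shares of all counted reads, without scaling factors, *Serpina1c* and *Serpina3k* overlapped between diets in WT livers, which left 4 members separate, beside 40.6% of all tested genes, and the 8 in livers labelled HuRHep-/- stayed separate, beside 56%. The *Serpina1* sum differed by -1.07 ± 0.26 (SE) and -1.32 ± 0.13 on the log2 scale and the *Serpina3* sum by -0.53 ± 0.19 and -1.18 ± 0.19, without overlap in each case. As a share of all counted reads the *Serpina3* sum overlapped between diets in WT livers (0.980% in HFCF WT replicate 2 and 0.927% in chow WT replicate 3). The *Serpina1* sum does not depend on how reads were split among these 5 genes, but reads shared with genes outside it, such as *Gm8893*, or left uncounted can still bear on it.

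Proximal promoters are shown for *Serpina1e*, which had the largest difference with diet among the members, and for *Serpina1c*, which had the highest mean RPKM of the members in 3 of the 4 groups. RefSeq sequence (GRCm38.p6) was matched for 6 of the 9 genes, *Serpina1a* to *Serpina1e* and *Serpina3n*. The 250 bases before the start are given for *Serpina1c* (chr12:103904951-103905200, minus strand) and *Serpina1e* (chr12:103956898-103957147, minus strand). These are RefSeq starts, which differ from the GENCODE gene ends: the window of *Serpina1e* lies inside the GENCODE span of that gene, and the window of *Serpina1c* lies just beyond the end of its span. Both are in lower case throughout.
Serpina1c: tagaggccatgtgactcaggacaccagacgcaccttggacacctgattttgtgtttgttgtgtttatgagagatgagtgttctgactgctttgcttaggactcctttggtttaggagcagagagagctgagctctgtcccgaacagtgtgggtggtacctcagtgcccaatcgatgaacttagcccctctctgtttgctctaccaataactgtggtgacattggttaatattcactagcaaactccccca
Serpina1e: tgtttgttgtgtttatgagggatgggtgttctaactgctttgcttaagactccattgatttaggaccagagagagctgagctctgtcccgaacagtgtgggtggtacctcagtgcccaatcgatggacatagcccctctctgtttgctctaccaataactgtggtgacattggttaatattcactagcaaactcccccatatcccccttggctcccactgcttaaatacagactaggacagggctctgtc
These 2 sequences were 95.5% identical over 199 aligned bases. The STAT element TTCNNNGAA, searched on both strands, was in 0 of the 6 windows and in 7.02% of 32851 promoters. This says only that these letters are not in these windows.

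The counts of the lists that follow stand beside the shares of all tested genes called. These were 2.29% higher and 1.94% lower between genotypes in chow, 2.85% and 3.95% in HFCF, 11.3% and 12.8% with diet in WT livers, and 19.7% and 19.1% with diet in livers labelled HuRHep-/-. The hepatocyte transcription factors, listed from gene names, were then examined. Of 11 tested, 0 were called between genotypes in chow and 0 in HFCF by limma, and 3 and 1 had an unadjusted p under 0.05. *Onecut2* had log2 differences of -0.28 (SE 0.073, adjusted p = 0.0746) in chow and -0.21 (SE 0.055, adjusted p = 0.0636, limma) in HFCF. With diet, 5 of 11 were called lower in WT livers and 3 of 11 in livers labelled HuRHep-/-, and 0 were called higher in either by limma.

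IL-6 and IL-1 induce acute-phase genes in hepatocytes. Of 16 tested genes of IL-6 and IL-1 signalling, 1 was called lower in chow, and 2 were called higher and 1 lower in HFCF livers labelled HuRHep-/-. *Il1rap*, the shared chain of the IL-1 receptor, was the lower gene in both diets (log2 differences -0.60, SE 0.077, adjusted p = 0.0118, and -0.76, SE 0.15, adjusted p = 0.0376, limma). *Stat3*, the transcription factor that IL-6 activates, rose in HFCF (0.54, SE 0.12, adjusted p = 0.0420, limma), as did *Osmr*, the oncostatin M receptor (0.82, SE 0.19, adjusted p = 0.0493). With diet 1 of the 16 was called higher and 3 lower in WT livers, and 2 higher and 3 lower in livers labelled HuRHep-/-. Of 12 glucocorticoid response genes, 0 were called in chow by limma (2 at an unadjusted p under 0.05) and 1, *Dusp1*, was called lower in HFCF (-0.56, SE 0.11, adjusted p = 0.0335). With diet 3 of the 12 were called lower in each genotype.

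Other acute-phase proteins were called in both directions. Of 18 tested, 6 were called higher and 1 lower in chow livers labelled HuRHep-/-, with a median log2 difference of 0.26, and 1 higher and 2 lower in HFCF. *Itih3*, an inter-α-trypsin inhibitor heavy chain, rose from 585 ± 62.2 to 1452 ± 251 CPM in chow and from 384 ± 81.4 to 692 ± 15.9 CPM in HFCF (log2 differences 1.31 and 0.85, adjusted p = 0.00801 and 0.0246, limma). *Saa1* rose in chow (log2 difference 4.01, SE 0.64, adjusted p = 0.0211, limma). *Hpx*, the haem carrier hemopexin, fell from 3769 ± 178 to 2017 ± 370 CPM in chow and from 3723 ± 293 to 1236 ± 81.0 CPM in HFCF (log2 differences -0.91 and -1.61, adjusted p = 0.0213 and 0.00236, limma). With diet 3 of 18 were called higher and 6 lower in WT livers, and 1 higher and 11 lower in livers labelled HuRHep-/-.

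Of 29 other serpins, 22 were tested in each genotype comparison. In chow 0 were called higher and 1 lower by limma, *Serpinb1a*, an intracellular inhibitor of neutrophil proteases present at 3.49 ± 0.557 CPM in WT livers and 1.66 ± 0.521 CPM in livers labelled HuRHep-/- (log2 difference -1.09, SE 0.24, adjusted p = 0.0499). In HFCF 0 were called in either direction by limma, with 5 at an unadjusted p under 0.05. *Serpinf2*, which encodes α2-antiplasmin, had 724 ± 53.8 and 931 ± 60.9 CPM in chow (log2 difference 0.37, SE 0.089, adjusted p = 0.0607, limma). With diet 2 of 25 were called higher and 5 lower in WT livers, and 6 higher and 7 lower in livers labelled HuRHep-/-.

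Of 13 listed proteases that serpins restrain, 6 could be tested in chow and 7 in HFCF. In chow 0 were called by limma, with 2 at an unadjusted p under 0.05. In HFCF livers labelled HuRHep-/- 2 were called higher, *Prtn3*, the neutrophil serine protease proteinase 3 (log2 difference 1.69, SE 0.39, adjusted p = 0.0498, limma), and *St14*, the membrane protease matriptase (1.73, SE 0.28, adjusted p = 0.0241). With diet 1 of 7 was called higher and 1 lower in WT livers, and 1 higher and 2 lower in livers labelled HuRHep-/-. The higher gene in WT livers was *Elane*, neutrophil elastase, named here after its values were seen (log2 difference 3.46, adjusted p = 0.00343, limma). It had 0, 1 and 3 raw reads in chow WT livers and 30, 10 and 15 in HFCF WT livers, so that it passed the filter through HFCF livers and its fitted difference depends on the pseudocount. α1-antitrypsin also depends on folding and export from the endoplasmic reticulum. Of 19 genes of that machinery, *Hspa5*, the chaperone BiP, fell in chow (-0.58, SE 0.094, adjusted p = 0.0219, limma) and *Canx*, the lectin chaperone calnexin, fell in HFCF (-0.49, SE 0.059, adjusted p = 0.0140). Each was the only called gene of the list in that diet, and 0 were called higher by limma. An unadjusted p under 0.05 (limma) was reached by 3 of the 19 in chow and 11 in HFCF, beside 23.5% and 29.5% of all tested genes. The median log2 difference of the list was 0.02 in chow and -0.25 in HFCF, where 2 of the 19 lay above 0. In the interaction 8 of the 19 had an unadjusted p under 0.05 (limma), beside 14.4%. With diet 6 of 19 were called higher in WT livers, and 1 higher and 6 lower in livers labelled HuRHep-/-.

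The summed level of hepatocyte markers other than serpins was highest in chow WT livers. Most of that sum was *Alb*, at 74058 ± 9222 CPM in chow WT livers and 41695 ± 1717 CPM in HFCF livers labelled HuRHep-/-. Of 10 markers, 9 were listed, and their summed level was 106557 to 131768 CPM in chow WT livers, 88313 to 98067 CPM in chow livers labelled HuRHep-/-, 78373 to 85840 CPM in HFCF WT livers and 73937 to 78634 CPM in HFCF livers labelled HuRHep-/-. The summed level of 10 Kupffer cell and macrophage markers ran the other way, from 196 to 257 CPM in chow WT livers to 443 to 680 CPM in HFCF livers labelled HuRHep-/-, with 266 to 393 CPM and 288 to 479 CPM in the other two groups. Of these 10, 0 were called between genotypes in either diet by limma. With diet 4 were called higher in WT livers and 6 in livers labelled HuRHep-/-, whereas *Marco* and *Timd4* had negative log2 differences in both. The sum of 7 cholangiocyte markers was 149 to 260 CPM in HFCF livers labelled HuRHep-/- and at most 103 CPM in the other groups. Stellate cell markers, 8 in all, summed to 198 to 289 CPM in chow livers and 286 to 587 CPM in HFCF livers, and 8 of sinusoidal endothelium to 111 to 155 CPM in all groups. Neutrophil markers, 10 of 11 listed in both tables, summed to 4.71 to 5.71 CPM in HFCF livers labelled HuRHep-/- and to 2.09 to 3.75 CPM in the other groups, without overlap. Only 3 of the 11 passed the filter on low counts in each genotype comparison, and 0 were called by limma. Most of the sum in HFCF livers labelled HuRHep-/- was *Csf3r*, at 3.04 ± 0.479 CPM, and *S100a8* had 32, 34 and 22 raw reads there. The part of these shifts in the serpin differences was not tested, and in bulk liver fewer hepatocytes and less RNA per hepatocyte cannot be told apart.

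Across the 12 livers the transcripts most like the *Serpina1* sum, among 7214 genes with at least 10 CPM on average, were *Cfhr2* (Pearson r 0.985), *Cyp1a2* (0.984) and *Uimc1* (0.984). *Cyp1a2*, a hepatocyte cytochrome P450, had 726 ± 60.5 CPM in chow WT livers, 722 ± 159 in chow livers labelled HuRHep-/-, 256 ± 104 in HFCF WT livers and 193 ± 7.88 in HFCF livers labelled HuRHep-/-. For the *Serpina3* sum they were *Nbr1* (0.987), *Dcaf8* (0.983) and *Ip6k1* (0.983), and for *Serpina6* they were *Emd* (0.902), *Adssl1* (0.826) and *Mrpl14* (0.819). These correlations describe the libraries, share the differences between the 4 groups and the scaling of each library, and carry no test.

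Within groups the *Serpina1* genes varied together between mice. After subtraction of group means, Pearson r over the 12 livers ran from 0.74 (*Serpina1b* with *Serpina1e*) to 0.99 (*Serpina1c* with *Serpina1d*). The part of shared reads in these correlations was not tested. *Serpina3k* varied with them (0.74 to 0.83), whereas its neighbour *Serpina3m* had r of 0.03 with *Serpina3k* and *Serpina3n* had -0.15. *Serpina6* varied most closely with *Serpina3m* (0.66).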

How the data were processed

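Liver RNA (integrity number above 6, per the labels) was sequenced from stranded libraries. With CLC Genomics Workbench the authors aligned the reads to the build GRCm38.p6, with a reverse strand setting, and deposited raw read counts per gene, 1 table per diet, as text with digit commas. The software version, multi-mapping rule and the rule by which the tables list genes are not given in the sources used here. Commas were removed, after which 0 values were other than whole numbers. Because of the text format, the count test of the design was replaced by limma 3.58.1 (R 4.3.3, variance trend, Benjamini-Hochberg adjustment over all tested genes) on log2 CPM, computed here from the deposited counts with TMM factors (trims 0.3 and 0.05) and a pseudocount of 0.5. Genes needed the equivalent of 10 counts in 3 libraries and 15 in total, which 13526 passed in chow, 14295 in HFCF and 14535 over 12 libraries. A gene was called at an adjusted p of at most 0.05. Genotype was fitted within each diet, diet and interaction over 12 libraries. Subfamily sums carry no p, except where each subfamily was fitted as 1 row to count the members called. P-values measure the spread between mice.

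The members and lists were chosen with earlier results of these data known. Genes named were the 9 members, *Elavl1*, of each list up to 4 with the smallest p between genotypes, and the 3 most like each sum, *Serpina6* or *Serpina1e*. Sequences were read with Python 3.11.15 and Biopython 1.88. The fits were tested on simulated data. Alternatives were other scaling, filters and pseudocount, voom weights, a fit over 12 libraries, subfamilies as 1 row, the fold change rule of the study, a replicate block and each library left out, and, for overlap of groups, shares of all counted reads, chosen after seeing the data.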

Additional observations from a re-analysis of the deposited data

How the results depend on the processing

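The number of members called depended on the setting. Between genotypes in chow it was 0, and 1 with the replicate number as a block, and with a library left out it ran from 0 to 1 (1 without chow WT replicate 2). In HFCF it was 1, and 2 with voom weights or a fit over 12 libraries, each adding *Serpina1b* (adjusted p = 0.0338 and 0.0286, limma), and 3 with each subfamily summed into 1 row and its members counted with it. Those 3 are *Serpina3k*, *Serpina3m* and *Serpina3n*, counted through a summed row that *Serpina3k* dominates. Singly, *Serpina3m* and *Serpina3n* were not called and had positive log2 differences (0.12 and 0.28). With a library left out the number of members called in HFCF ran from 0 to 2 (0 without HFCF WT replicate 1 or any 1 HFCF liver labelled HuRHep-/-, 2 without HFCF WT replicate 3). Averaged over diets it was 3, and 1 with a fold change of at least 1.5 required, and 2 to 6 with a library left out. The interaction gave 0 in each setting, by limma and with voom weights, and counts with diet stayed within 1.5 times of 4 and 6. The share of all tested genes called moved with the setting as well. That share was 7.43% with voom weights in HFCF and 20.1% averaged over diets without HFCF WT replicate 3. For most other settings the share was not computed, so these changes in count are not shown to be particular to the members.

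Replicate numbers stand for separate mice, and the labels do not say whether they also mark a batch. Deviations of same-numbered samples correlated between -0.14 and 0.19, over 0.1 in 3 of 12 pairs, which cannot decide it. Because the mice are separate, the block is not a paired analysis. It added the call of *Serpina3n* in chow and changed no other call of a member.

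For single members 385 of 396 values in other settings and 484 of 540 with a library left out kept their direction and side of the threshold. No value that had changed sign was called. Reversals in other settings were *Serpina1a* in the interaction (0.030 with upper-quartile factors, 0.016 with at least 10 counts in every library), *Serpina1d* in the interaction (-0.015 without a filter, -8.09e-06 with voom weights) and *Serpina3n* with diet in livers labelled HuRHep-/- (-0.020 without a filter).

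With a library left out, the log2 differences that changed sign had these ranges. Between genotypes in chow they ran from -0.030 to 0.32 for *Serpina1e*, -0.15 to 0.037 for *Serpina3m* and -0.18 to 0.098 for *Serpina6*, and in HFCF from -0.12 to 0.27 for *Serpina3m*. In the interaction they ran from -0.13 to 0.19 for *Serpina1a*, -0.24 to 0.26 for *Serpina1c*, -0.16 to 0.25 for *Serpina1d*, -0.064 to 0.34 for *Serpina3m* and -0.21 to 0.0067 for *Serpina3n*. With diet in WT livers they ran from -0.0029 to 0.21 for *Serpina3n* and -0.22 to 0.063 for *Serpina6*, and in livers labelled HuRHep-/- from -0.11 to 0.059 for *Serpina3n*. Averaged over diets they ran from -0.99 to 0.056 for *Serpina1e* and -0.082 to 0.12 for *Serpina3m*.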
